A study of Oryza sativa Japonica Group with 12 samples.

Results

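The 42 probe sets described here had a signal at least 4-fold lower in fst than in wild-type (WT) panicles before flowering, and were no longer below it by 2-fold or more at 5 days after pollination (DAP). They were chosen from 57258 probe sets by the difference of the mean log2 signals, fst minus WT, which had to be at most -2 before flowering and above -1 at 5 DAP. Of 77 probe sets at or below -2 before flowering, 33 were also at or below -1 at 5 DAP, and 2 more were left out by name, a lipid transfer protein (LTP) gene and the anther gene RTS. The rule used all 12 arrays, so the values that compare fst with WT are a description of what was chosen and carry no test.

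Rice (Oryza sativa, japonica) panicles were measured on the Affymetrix Rice GeneChip in 4 groups of 3 arrays, which were WT before flowering (WBF), fst before flowering (MBF), WT at 5 DAP (W5D) and fst at 5 DAP (M5D). The fst plants carry a spontaneous frame-shift mutation of the MADS-box gene FST, and the sample labels use its earlier name, cyn (cynosure). One label field of these arrays, the description, calls them wild lines, but the other fields give the mutant, and those were used. All plants grew in a greenhouse in natural daylight, and the panicles of 10 plants (20 panicles in all) were combined for every array. The first stage is described in the study as shortly before flowering.

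A rice panicle before flowering holds closed florets with anthers and ovules. The tapetum, the innermost wall layer of the anther, feeds the developing pollen with lipids, sugars and proteins and then dies, so many genes that it uses are silent once the flower has opened. After pollination the anthers wither, and the ovary with its embryo and endosperm makes up a growing share of the panicle. In a whole panicle, fewer cells of a type and less RNA per cell cannot be told apart. The study reports that fst plants flowered earlier than WT, and that the mutation left anther development and the viability of pollen unaffected. Whether the pools taken before flowering differed in floret stage was not tested.

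Of the 42 probe sets, 21 had a gene in the platform annotation, for 20 genes in all, and 21 had none. A name that says what the protein is was taken for 17 of them from the study's own tables, where it is the closest match, often in another plant. As 26 of the 42 stand in those tables, which were drawn from these arrays, the names are not an independent sample of functions. Sorted by words in these names, 5 probe sets fell under defence-type proteins, 3 under lipids and sterols and 2 under protein breakdown. A further 2 fell under sugars and the cell wall, 2 under DNA and transposons and 1 under signalling, and 2 had other names. The sulfotransferase was counted with lipids and sterols by its word, although it is named after an enzyme acting on flavonols. Of the 5 defence-type probe sets, 2 belong to the guanylate-binding gene LOC4334423. Another of them, glp16, stands under nutrient reservoir in the study. No name or group was available for the other 25 of the 42.

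The signal of the members in WBF was moderate. Their WBF means lay between 23.2 and 1532 with a median of 132, and 40 of 42 were above 32.2, the median of all signals. A 4-fold fall needs room above the bottom of the scale, so the rule favours such WBF means. In MBF the means lay between 4.99 and 262 with a median of 22.3, and 25 were at or below that median. The change before flowering ran from -3.49 to -2.02 on the log2 scale with a median of -2.34, against 0.04 over all probe sets. In 39 of 42 every MBF array was below every WBF array (13.5% of all probe sets), and 36 passed an adjusted p of 0.05 in limma (2.80% of all probe sets were lower in fst by this test), but both counts follow from the choice of the members.

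At 5 DAP the members were split around 0. The change in fst ran from -0.99 to 1.25 on the log2 scale with a median of -0.05, with 22 members below 0 and 20 above. By limma 5 were lower in fst (5.41% of all probe sets) and 1 was higher (6.22%), and 36 did not pass. These counts changed by over 1.5 times when any of 8 single arrays was left out for the lower and any of 8 for the higher members, with ranges of 1 to 6 and of 0 to 5, and nothing is read from them.

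**Figure D1:**
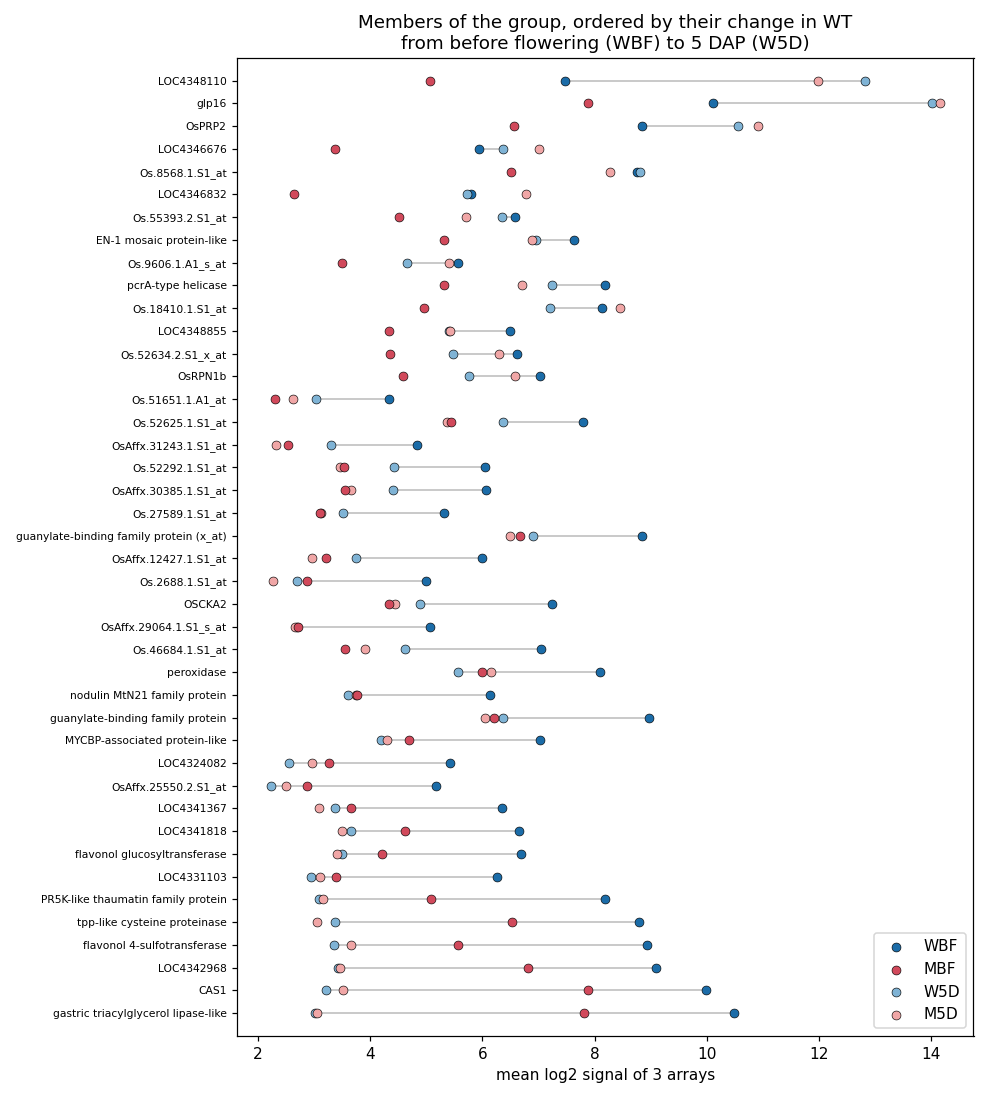
Mean log2 signal of 3 arrays (horizontal axis) of the 42 members in the 4 groups, with the members ordered by their WT change and a grey line from WBF to W5D. The WT change runs from -7.47 in the lipase-like gene at the bottom to 5.34 in LOC4348110 at the top, and MBF lies left of WBF in every row.

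In WT the members did not share a course from one stage to the other. In 21 the mean fell 4-fold or more by 5 DAP, in 10 it fell between 2-fold and 4-fold, in 8 it stayed within 2-fold, and in 3 it rose 2-fold or more. By limma 33 were lower in W5D than in WBF (14.9% of all probe sets), 2 were higher (16.4%), and 7 did not pass. The higher count was 4 without WBF replicate 1. Every W5D array was below every WBF array in 34 members (21.0% of all probe sets) and above it in 2 (26.9%). These comparisons share their arrays with the rule, which favours a high WBF signal, and are not independent of it.

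The same step was taken within fst. From MBF to M5D, 8 members fell (11.2% of all probe sets) and 14 rose (15.6%), with a range from -4.77 to 6.94 on the log2 scale and a median of -0.03. The 8 that fell all belonged to the members whose WT signal fell 4-fold or more. The 14 that rose were all 8 that stayed within 2-fold in WT, all 3 that rose in WT, and 3 of the 10 with a smaller WT fall. For the members within 2-fold or rising in WT a higher mean in M5D than in MBF follows from the limits of the rule by arithmetic, so this division restates the choice.

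The steepest WT falls belonged to 6 members that were high in WBF, intermediate in MBF and near the bottom of the scale at 5 DAP in both genotypes. In the study's tables these were a lipase, CAS1, a cysteine proteinase, a thaumatin-family protein, a sulfotransferase and a gene without a name. The fall from WBF to MBF was between 31.1% and 60.7% of the WT fall on the log2 scale, with a median of 41%. In the other 15 members with a WT fall of 4-fold or more, this share lay between 67.8% and 143%. The share is the change before flowering divided by the WT change. Over all members the change before flowering ran only from -3.49 to -2.02. A steeper WT fall therefore tends to give a smaller share by arithmetic. The 6 and the 15 were also divided by the height of MBF above W5D. The contrast between their shares thus largely restates the choice.

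The lipase-like gene LOC4341600 was named after gastric triacylglycerol lipase, an enzyme that splits fats. Its signal was 1840, 810 and 1945 in WBF, 243, 409 and 116 in MBF, 6.85, 9.25 and 8.24 in W5D and 6.95, 9.83 and 8.39 in M5D. The WBF, MBF and 5 DAP arrays formed separate ranges, with no overlap between WBF and MBF. Its change in fst before flowering was -2.66 (SE 0.40), and its change in WT to 5 DAP was -7.47 (SE 0.40, limma adjusted p = 9.44e-09), the largest WT fall among the members.

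CAS1 is the name of cycloartenol synthase, which makes the first ring-shaped precursor of plant sterols. Its probe set gave 1003, 864 and 1227 in WBF and 257, 304 and 170 in MBF. At 5 DAP it gave 10.9, 9.05 and 8.24 in WT and 13, 10.4 and 10.9 in fst. All 3 MBF arrays lay between the WBF and the 5 DAP arrays. The change in fst was -2.11 (SE 0.20) and the WT change -6.77 (SE 0.20, limma adjusted p = 2.1e-11).

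The cysteine proteinase LOC4347462, a protein-degrading enzyme, had signals of 375, 549 and 423 in WBF and of 132, 54.9 and 108 in MBF. It was at 10, 10.7 and 10.5 in W5D and at 8.27, 9.53 and 7.28 in M5D. The MBF arrays were again between the WBF and the W5D arrays, and the M5D arrays were all below the W5D arrays. Its WT change was -5.41 (SE 0.25, limma adjusted p = 2.62e-09). LOC4342968, for which no name was at hand, gave 400, 347 and 1182 in WBF, 84, 160 and 108 in MBF, 9.43, 10.6 and 12.5 in W5D and 9.92, 13.6 and 9.94 in M5D. WBF replicate 3 stood above the other WBF arrays here, and the MBF arrays were all below them.

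The sulfotransferase, named after an enzyme that adds sulfate to flavonols, had signals of 479, 294 and 817 in WBF and of 43.7, 99.4 and 24.2 in MBF. In W5D it was at 8.08, 12.6 and 10.7, and in M5D at 12.5, 10.2 and 15.4. Among the members it had the second largest fall before flowering, at -3.36 (SE 0.44). The thaumatin-family gene LOC4343037, of a family that includes antifungal proteins made on infection, gave 219, 217 and 526 in WBF, 28.4, 55.4 and 25.1 in MBF, 7.69, 10.3 and 7.64 in W5D and 10.3, 8.21 and 8.39 in M5D. Its change in fst was -3.10 (SE 0.33) and its WT change -5.11 (SE 0.33, limma adjusted p = 8.38e-08).

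Within the 6, the arrays of a group were not equal. Replicate 2 was the highest MBF array in 5 of them and the lowest WBF array in 5, and replicate 3 was the lowest MBF array in 4. Beside these values stand those of anther genes from a marker list, taken from those lower in MBF by limma. RTS, a tapetum gene left out by name, was at 14625, 6518 and 15621 in WBF and at 2008, 7607 and 1371 in MBF, so that its highest MBF array exceeded its lowest WBF array. TDR, a transcription factor of tapetum degeneration, was at 260, 254 and 297 in WBF and at 119, 99.1 and 106 in MBF, and EAT1, which acts after it, at 112, 141 and 125 and at 60, 45.4 and 37.8.

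Of 31 genes on the list of tapetum and anther markers, 13 had a probe set, and 4 of these (RTS, TDR, EAT1 and RAFTIN1) were lower in MBF than in WBF by limma (2.80% of all probe sets) and none was higher (1.81%), with a median log2 change of -0.28. The count was 2 without MBF replicate 1 or 3 or without WBF replicate 1 or 3. RTS itself met the limits of the rule, with -2.05 before flowering and 0.10 at 5 DAP, and was only left out by name. Its place among the 4 is therefore not independent of the rule. The summed signal of the 13 was 9649 to 19817 in WBF and 3824 to 10635 in MBF, and 2481 to 3220 in W5D and 4566 to 5522 in M5D. These sums mostly follow single genes and do not stand for the list. Before flowering the largest part was RTS, with means of 12255 in WBF and 3662 in MBF. At 5 DAP it was AP25, with means of 1607 in W5D and 3867 in M5D. The defining markers PTC1 and CYP703A3 were near the bottom of the scale in all groups. Among the others that fell in WT by limma, GAMYB and BHLH142 differed by -0.16 and -0.15 before flowering (limma adjusted p = 0.503 and 0.576), MSP1 by -0.28 (0.18) and the lipid transfer gene C6 by -1.46 (0.143). AP25 and TDL1A had higher means in MBF, by 0.54 and 0.35 (limma adjusted p = 0.083 and 0.257). MTR1, with a WT change of 0.01, differed by -0.34 before flowering (limma adjusted p = 0.147). Ovule and carpel markers (7 of 8 with a probe set) had 0 lower and 2 higher, MADS21 and MADS29. By the study's account MADS29 has the same reading frame as FST, the gene mutated in these plants, so it is not an independent marker here. Its mean was 115 in WBF and 227 in MBF. The summed signals of the list were 5040 to 5542 in WBF and 5454 to 6243 in MBF. Their largest part was MADS58, with means of 3671 in WBF and 3748 in MBF. Endosperm markers (5 of 10) had 0 lower and 1 higher, and leaf markers (4 of 8) had 0 in either direction. The 1 higher was GLUA2, whose mean was 571 in WBF, 912 in MBF and 167 in W5D. Near the bottom of the scale in WBF were GLUA1 (6.94), GLUA3 (4.77), the leaf marker RBCS1 (5.51) and the ovule marker MADS30 (5.19). These had little room to be lower in MBF, so the counts of 0 lower are limited by their level. None of the 9 pollen markers had a probe set here. The part of these anther genes' change in the members' values was not tested.

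**Figure D2:**
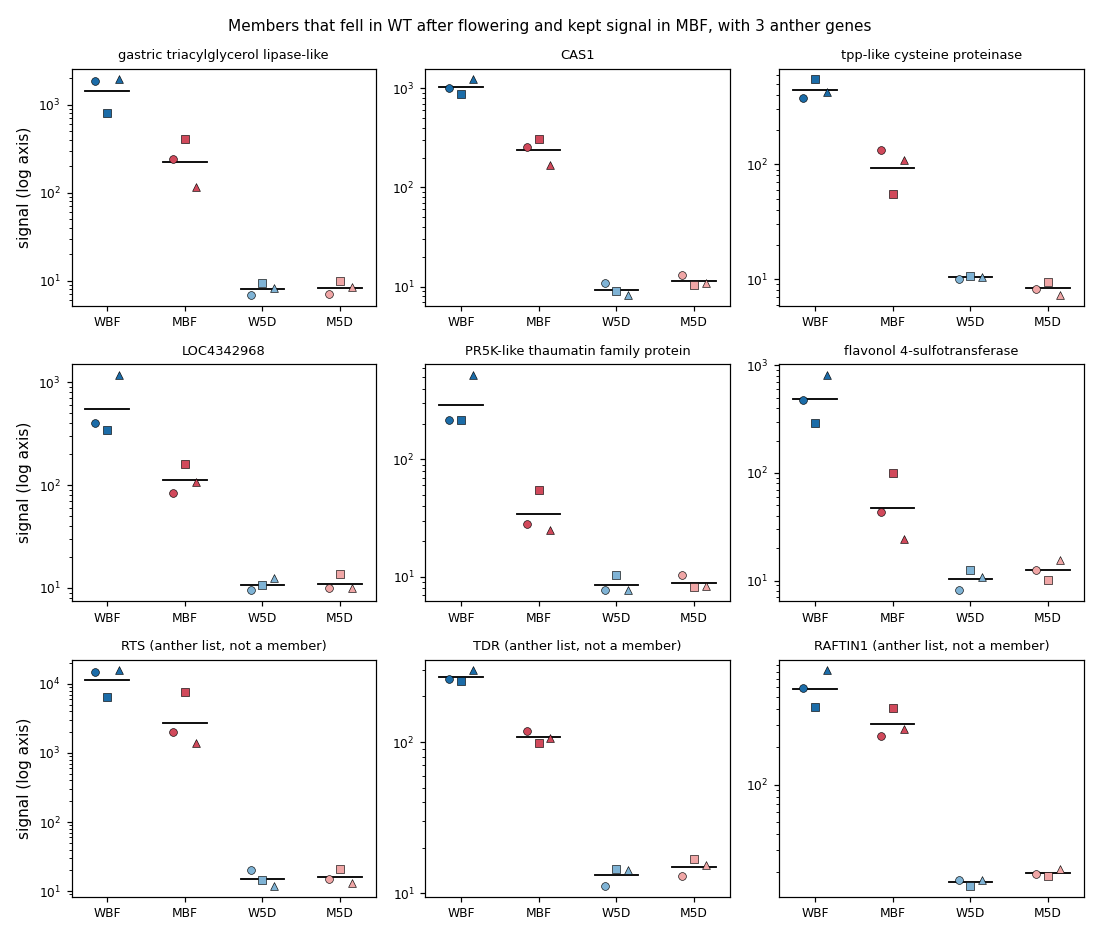
Signal on each array, on a log axis, of the members with the steepest WT falls and of the anther genes RTS, TDR and RAFTIN1, which are not members. These anther genes were taken from the 4 lower in MBF by limma, of 13 on the list with a probe set. The circle, square and triangle are replicates 1, 2 and 3, and the line is the geometric mean. In the lipase-like gene MBF (116 to 409) lies between WBF (810 to 1945) and W5D (6.85 to 9.25).

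In the other 15 members with a 4-fold WT fall, MBF was less than 2-fold above W5D or was below it. OSCKA2, named as the catalytic alpha subunit of the protein kinase CK2, was at 174, 151 and 130 in WBF, 18.8, 20.4 and 21.7 in MBF, 31.4, 27.5 and 29.8 in W5D and 18.6, 18.1 and 30.3 in M5D. It had a close spread, and its MBF arrays were all below the W5D arrays. The change in fst was -2.90 (SE 0.18) and the WT change -2.35 (SE 0.18, limma adjusted p = 3.34e-07).

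Among the 42 members the largest fall before flowering was that of a probe set with no gene and no name. It was at 180, 136 and 94.5 in WBF, at 10.2, 13.9 and 11.6 in MBF, at 26.6, 20.4 and 27.2 in W5D and at 19.1, 14.9 and 11.8 in M5D. The MBF arrays were below all W5D arrays. The change in fst was -3.49 (SE 0.23).

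Guanylate-binding proteins are large GTPases known from cell defence in animals. LOC4334423, named so, has 2 probe sets among the members. One read 651, 454 and 435 in WBF, 56.3, 81.9 and 88.4 in MBF, 97.8, 69.4 and 83.5 in W5D and 49.2, 48.9 and 120 in M5D, a change of -2.77 (SE 0.31) in fst. The other fell by 2.19 (SE 0.20), with 542, 443 and 411 in WBF and 98.7, 108 and 98 in MBF. A further probe set of the same cluster on the array, not a member, differed by -0.12 (SE 0.15).

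Of the remaining named members in this class, the flavonol glucosyltransferase LOC4333663, which couples sugar to a flavonol, was at 114, 69.5 and 140 in WBF, 15.8, 24.6 and 16.3 in MBF, 11.4, 10.5 and 12.1 in W5D and 11.9, 8.61 and 11.6 in M5D. LOC4327998 of the MtN21 family, a family of membrane transporters first found in nodules of Medicago, was at 90.8, 50.1 and 77.9 in WBF and at 13.4, 18.1 and 10.4 in MBF. A gene for a protein resembling a MYCBP-associated protein was at 167, 132 and 103 in WBF and at 38.1, 18.5 and 25 in MBF. In none of the 3 did WBF and MBF overlap, and their W5D means were as low as the MBF means or lower. LOC4341818 was at 139, 52.2 and 144 in WBF and at 22.4, 37.2 and 17.9 in MBF, also without overlap.

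The 10 members with a smaller WT fall had a median WT change of -1.49. OsRPN1b, a subunit of the regulatory particle of the 26S proteasome, was at 140, 116 and 135 in WBF, 25.4, 33 and 16.3 in MBF, 45.4, 70.1 and 51.5 in W5D and 116, 58.9 and 129 in M5D. MBF was the lowest group on every array, and M5D overlapped WBF. The change was -2.44 (SE 0.29) before flowering and 0.81 (SE 0.29) at 5 DAP. The WT change of LOC4348855 was -1.10 (SE 0.29, limma adjusted p = 0.0117), from 113, 55.2 and 118 in WBF to 38.3, 47.4 and 41.2 in W5D, and its adjusted p was 0.0561 without WBF replicate 1 and 0.0513 without WBF replicate 3. In MBF it was at 32.1, 14.5 and 17.6, below all other arrays.

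Among the falling members, 12 had neither a gene nor a name. Their means were 23.2 to 225.0 in WBF, 4.99 to 43.6 in MBF, 4.72 to 83.8 in W5D and 4.87 to 80.8 in M5D. In 10 of the 12 both the MBF and the W5D mean were under the median of all signals. Their changes were -3.49 to -2.02 before flowering in fst, -2.94 to -1.13 in WT and -0.99 to 0.81 at 5 DAP.

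In 8 members the WT signal stayed within 2-fold between the stages, and in all 8 every MBF array was below all other 9 arrays. Over all members this held for 13 (3.65% of all probe sets), and the rule favours it. From MBF to M5D their means differed by 1.19 to 4.13 on the log2 scale with a median of 1.84, and a difference above 0 is fixed by the rule and the class.

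The helicase LOC4343276, named after the bacterial DNA helicase pcrA, was at 372, 293 and 225 in WBF, 52.5, 40.4 and 30.2 in MBF, 122, 169 and 171 in W5D and 72.5, 127 and 122 in M5D. Its WT change of -0.94 (SE 0.26) had a limma adjusted p of 0.0134, and of 0.0668 without WBF replicate 1 and 0.0617 without W5D replicate 1. The EN-1 mosaic protein-like probe set, named after the maize transposon EN-1, was at 204, 208 and 183 in WBF, 33.7, 33.4 and 55.3 in MBF, 117, 172 and 96.5 in W5D and 148, 77.7 and 143 in M5D. In both the MBF arrays were the lowest, and WBF was above W5D without overlap.

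Another 3 of the 8 had neither gene nor name. The brightest of them was at 467, 392 and 444 in WBF and at 476, 406 and 469 in W5D, a WT change of 0.05 (SE 0.27). In MBF it was at 126, 120 and 49.9, and in M5D at 367, 306 and 263. The next was at 103, 92.7 and 92.1 in WBF, 29.3, 22.2 and 18.3 in MBF, 83.1, 76.9 and 85.3 in W5D and 42, 69.7 and 48.4 in M5D. In both the M5D arrays lay between MBF and W5D. The last was dimmer, at 52.1, 33.6 and 60.2 in WBF, 12, 8.82 and 13.6 in MBF, 24.3, 29.4 and 22.5 in W5D and 55.6, 24.1 and 56.8 in M5D. Its WT change of -0.90 (SE 0.31) had a limma adjusted p of 0.0388, which lay above 0.05 without any 1 of WBF replicates 1 and 3 or of the 3 W5D arrays, between 0.0521 and 0.134.

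An unnamed probe set without a gene and LOC4346832 had a higher mean in fst than in WT at 5 DAP. The former was at 161, 282 and 497 in WBF, 30.4, 45.4 and 22 in MBF, 157, 163 and 124 in W5D and 520, 214 and 382 in M5D, with every M5D array above every W5D array. The change was -3.18 (SE 0.39) before flowering and 1.25 (SE 0.39) at 5 DAP. LOC4346832 was at 46.9, 56.2 and 63.7 in WBF, 5.95, 6.79 and 6.05 in MBF, 68.4, 48.6 and 45 in W5D and 319, 19.5 and 211 in M5D. Its M5D replicate 2 lay below all WT arrays and the other M5D arrays above them, so the 5 DAP change of 1.04 had an SE of 0.72. Its 2 other probe sets, which are not members, differed by 0.18 (SE 0.19) and 0.34 (SE 0.13) before flowering.

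**Figure D3:**
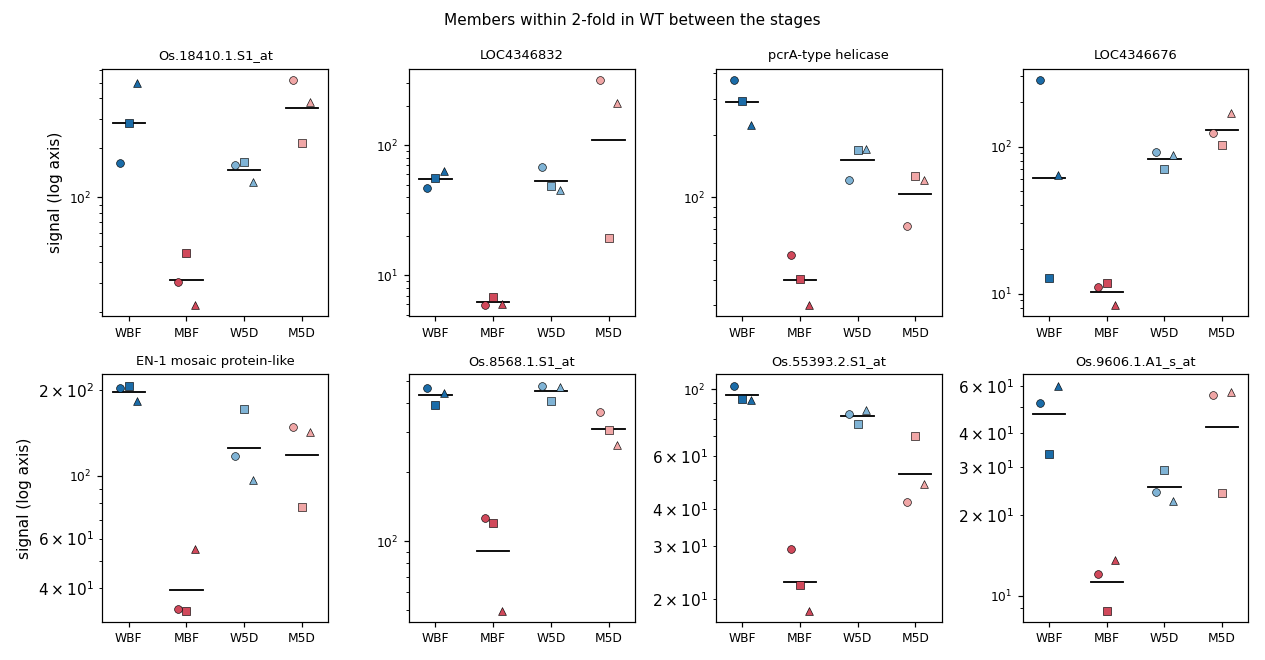
Signal on each array, on a log axis with a range of its own in each panel, of the 8 members within 2-fold in WT between the stages. The circle, square and triangle are replicates 1, 2 and 3, and the line is the geometric mean. In every panel the 3 MBF points are the lowest of the 12, and in LOC4346676 WBF replicate 2 (12.7) lies close to them.

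In 3 members the WT mean was 2-fold or more higher at 5 DAP, and by limma 2 of them rose. That their fst mean was higher at 5 DAP too is fixed by the rule. The germin-like protein gene LOC4344838 (GER3, glp16), of a family of cell wall proteins known from stress responses, was at 1290, 1136 and 947 in WBF and at 134, 243 and 410 in MBF. At 5 DAP it was at 16071, 16780 and 17055 in WT and at 17394, 18515 and 18954 in fst. WBF and MBF did not overlap, and every M5D array was slightly above every W5D array. The rise was 3.90 (SE 0.28, limma adjusted p = 2.37e-07) in WT and 6.27 (SE 0.28, limma adjusted p = 1.58e-09) in fst, and the change at 5 DAP was 0.14 (SE 0.28).

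OsPRP2 (LOC4348122), a proline-rich protein of the type found in cell walls, was at 1140, 80.3 and 1079 in WBF, 73.5, 104 and 112 in MBF, 1095, 1856 and 1676 in W5D and 2067, 1851 and 1890 in M5D. WBF replicate 2 lay within the MBF range and the other WBF arrays an order of magnitude above it. The change of -2.29 (SE 0.73) was -3.55 without that array, whereas leaving out replicate 1 or replicate 3 of WBF gave -1.64 or -1.68, outside the rule. The WT rise of 1.70 (SE 0.73) did not pass limma (adjusted p = 0.099), and the rise in fst was 4.35 (SE 0.73, limma adjusted p = 0.00051).

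LOC4348110, without a name, was at 1445, 51.1 and 77 in WBF, 41.9, 37.5 and 23.4 in MBF, 6166, 6849 and 8876 in W5D and 4346, 4341 and 3593 in M5D. Only WBF replicate 1 was far above MBF, and without it the change of -2.42 (SE 0.87) was -0.92. It was -3.33 without WBF replicate 2 and -3.03 without WBF replicate 3. The rise to 5 DAP was 5.34 (SE 0.87, limma adjusted p = 0.000384) in WT.

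LOC4348110 and OsPRP2 lie near each other on chromosome 10, 17 genes apart in the annotation, and were the only members within 200 kb of one another. The left-out LTP gene LOC4348109 lies 2 places from LOC4348110 and was at 9998, 257 and 3058 in WBF and at 11.6, 39.5 and 11 in MBF. A probe set of LOC4348108 beside it was at 269, 32.3 and 88.7 in WBF and at 31, 27.9 and 31.3 in MBF, a change of -1.61 that did not pass limma (adjusted p = 0.0915), and another probe set of LOC4348108 differed by 0.24 (limma adjusted p = 0.451). WBF replicate 1 was the highest and replicate 2 the lowest WBF array in OsPRP2, LOC4348110, the LTP gene and the former probe set of LOC4348108. Around 19 members' genes, 104 probe sets of the 5 annotated genes on either side were measured. The LTP probe set and that of LOC4348108 were the only ones at -1 or below (0.674% of all probe sets). The LTP probe set met the limits of the rule, with -6.85 before flowering and -0.00 at 5 DAP, and was only left out by name. Its place in this count is therefore not independent of the rule.

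In 7 members the WBF arrays differed by more than 4-fold among themselves, by up to 31.6-fold, and WBF replicate 2 was the lowest in 6 of them. For 6 of the 7 the change before flowering did not pass limma, whereas it did for all other 35 members. Besides LOC4348110 and OsPRP2 these were LOC4346676, LOC4341367, LOC4324082, LOC4331103 and the peroxidase LOC4339222 (PRX74), an enzyme class that acts on lignin and other wall phenols. The median ratio of the highest to the lowest WBF array was 1.86 in the members and 1.18 over all probe sets. The rule favours probe sets raised by single high WBF arrays, and limma's test uses the spread between arrays. The wider WBF spread and the split by limma therefore largely follow from the choice and the test.

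The peroxidase was at 1148, 91.3 and 192 in WBF, 70.6, 77.2 and 48.3 in MBF, 54.7, 47.3 and 40.9 in W5D and 70.9, 67 and 77.5 in M5D. WBF replicate 1 stood alone, and without it the change of -2.09 (SE 0.63) was -1.05, against -2.87 without WBF replicate 2. LOC4324082 was at 39.1, 8.06 and 255 in WBF and at 7.47, 10.9 and 11.1 in MBF, and without WBF replicate 3 its change of -2.16 (SE 0.82) was -0.88, against -3.37 without WBF replicate 2.

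In the other 3 of the 7, 1 WBF array was low. LOC4341367 was at 202, 13 and 206 in WBF and at 11.4, 16.2 and 10.6 in MBF, and its change of -2.70 (SE 0.77) was -4.03 without WBF replicate 2, whereas leaving out replicate 1 or replicate 3 of WBF gave -2.04 or -2.03. LOC4346676 was at 284, 12.7 and 64.4 in WBF, 11.1, 11.8 and 8.4 in MBF, 91.8, 70.4 and 88 in W5D and 123, 103 and 169 in M5D, and its change of -2.57 (SE 0.75) was -3.71 without WBF replicate 2 and -1.47 without WBF replicate 1. LOC4331103 was at 145, 139 and 22.3 in WBF and at 11.9, 8.9 and 10.9 in MBF, a change of -2.87 (SE 0.51) and of -3.76 without WBF replicate 3. Only in LOC4341367 of these 3 did WBF and MBF overlap.

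**Figure D4:**
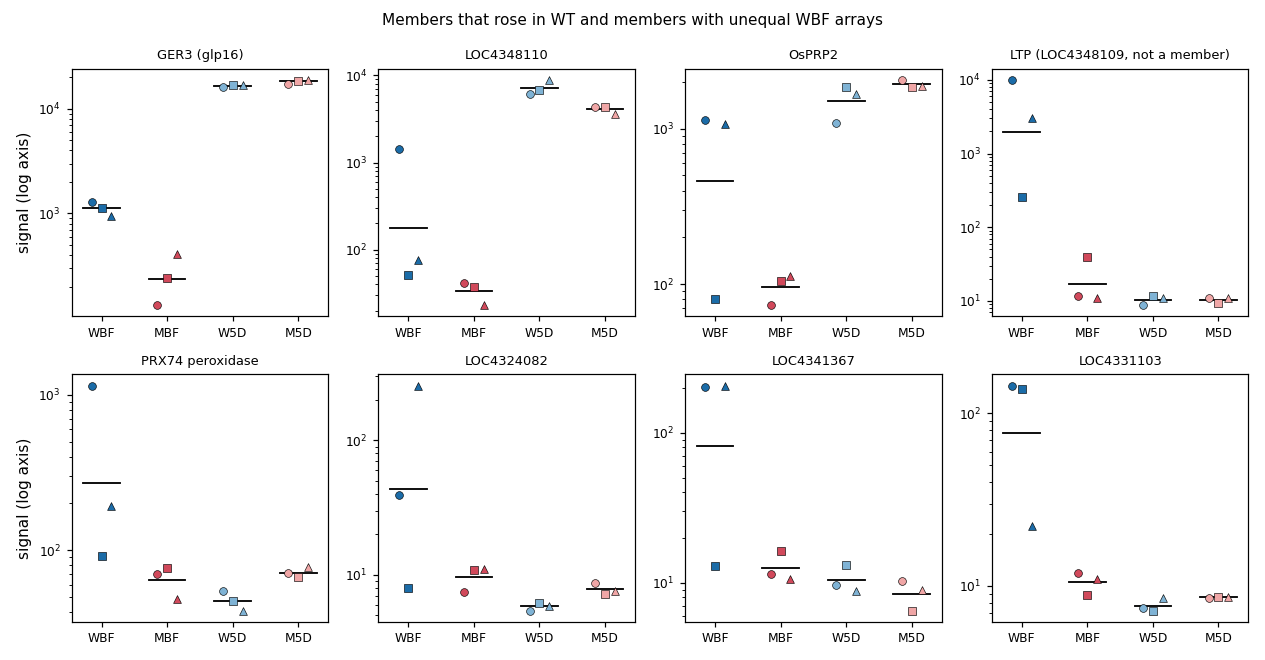
Signal on each array, on a log axis with a range of its own in each panel, of the members that rose in WT, of 4 more with uneven WBF arrays and of the LTP gene, which is not a member. The circle, square and triangle are replicates 1, 2 and 3, and the line is the geometric mean. In LOC4348110 WBF replicate 1 (1445) stands above the other WBF arrays (51.1 and 77).

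For 12 members the array held 15 further probe sets of the same gene or cluster number that were not members. Their changes before flowering ran from -1.47 to 0.34 with a median of -0.28, with 12 below 0, 3 at -1 or below and 3 lower by limma (2.80% of all probe sets). In 9 of the 15 the WBF mean was at or below the median of all signals. For OsRPN1b a further probe set of the gene gave -0.89, and another that shares only the cluster number gave -0.25.

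The limits of the rule cut through a continuous range. Just inside the limit before flowering were an unnamed probe set at -2.025 and LOC4341818 at -2.042, and just outside it LOC4325211 at -1.968 and an unnamed probe set at -1.958. Just inside the limit at 5 DAP were unnamed probe sets at -0.992 and -0.970, and just outside it LOC4347232 at -1.001 and an unnamed one at -1.003.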

How the data were processed

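The authors computed the deposited intensities, called signals here, with RMA in Affymetrix Expression Console (versions not given in the sources used here), which corrects the background, equalizes the arrays and summarizes each probe set. They are on a linear scale. The methods name the signal ratio and no test. Signals were raised to at least 1, which no value needed (the lowest was 3), and taken to log2. Group means were fitted to 57258 probe sets over all 12 arrays with limma 3.58.1 and eBayes in R 4.3.3 (8 residual degrees of freedom), without 123 control probe sets, and p was adjusted by Benjamini-Hochberg over all of them with a threshold of 0.05. The fit was tested on simulated data. SE is limma's standard error, and changes are on the log2 scale. Array medians were 30.8 to 33.6, and arrays of a group correlated at 0.99 to 0.996. The number of arrays limits the precision, and p-values measure the spread between pools. An exact permutation test of 3 arrays against 3 can give no p below 0.1.

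The platform table gave 22436 probe sets 1 gene, 95 several and 34727 none. A RefSeq table of assembly ASM3414082v1 was used for synonyms, chromosomes and gene order. Signals on each array are given for the members with the 5 largest falls before flowering, the 5 highest WBF means, the 5 largest WT falls and rises and those with a synonym or descriptive name. Several members without such a name were added for their pattern after their values were seen. The members, lists and classes were chosen with earlier results of these data known. Sequences and promoter motifs were not analysed here.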

Additional observations from a re-analysis of the deposited data

How the results depend on the processing

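Signals near the bottom of the scale limit the size of a fall: with signals raised to at least 16 the rule chose 35 probe sets, of which 32 were among the 42. It chose 44 after a second quantile normalization, 46 with arrays centred on the same median, 40 after a filter on dim probe sets, 46 with arithmetic means (40 of them shared), 35 without _x_at, _s_at and _a_at probe sets, 17 with 1 probe set per named gene (which drops probe sets without a gene), and 36 to 52 with 1 array left out, 52 of them without WBF replicate 2.

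The members lower in fst before flowering numbered 35 to 40 and those lower in WT at 5 DAP 30 to 34 with 1 array left out, those higher in WT 2 to 4, and those lower and higher in fst at 5 DAP against before flowering 6 to 9 and 13 to 14. With signals raised to at least 16, 4 members instead of 8 fell in fst. The 5 members lower in fst than in WT at 5 DAP were 1 with signals raised to at least 16, 8 with array weights, 3 with only the 6 arrays compared and 1 to 6 with 1 array left out. The 1 higher member became 2 with centred arrays, with the dim filter, with array weights and with only 6 arrays, 0 with signals raised to at least 16, and 0 to 5 with 1 array left out. The anther markers lower before flowering numbered 2 to 5 with 1 array left out. The fall in fst kept its sign in all 838 alternatives for single members (37 differed by more than the spread between replicates). For the 35 members past limma in WT, the WT change kept its sign in all 698, and 19 of these no longer passed. The members were chosen for a large fall or for passing limma, and many settings leave the compared arrays as they were. Leaving out a 5 DAP array, for example, cannot alter the fall before flowering. The kept signs are therefore largely fixed in advance.

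Equal replicate numbers did not pair the samples: deviations correlated at -0.29 to 0.0724, and 0 arrays correlated best with their own number. With the replicate number as a block, 36 members were lower before flowering and 33 lower in WT as without it, and at 5 DAP 2 were lower and 0 higher in fst. The cause of these differences was not tested.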
